A study of Rattus norvegicus with 24 samples.

Results

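The red blood cell and platelet genes were read by 7 probes of 6 genes, out of 41012 probes with 35537 names on the array. They were selected by name: the genes Hbb, Hbb-b1, Alas2, Slc4a1 and Pf4 and any other probe whose gene name begins with Hba or Hbb, which added Hba-a3. Probes of other globin genes were therefore not members. The choice was made with the measured ratios of MK-801 to saline at both doses already known, so every ratio of a member below is given as a description. The members were part of the fit over all probes, and how many that fit called is given once, as no evidence. The animals were male Wistar rats, 10 weeks old, of which 3 received saline and 6 received MK-801, which blocks the ion channel of NMDA receptors, by intraperitoneal injection. The low dose was 0.08 mg per kg and the high dose 0.16 mg per kg, and brains were taken 40 min after injection. Cerebral cortex, hippocampus, amygdala, ventral striatum, hypothalamus and midbrain were each hybridised on 4 arrays with 2 colours. Each array set MK-801 RNA against saline RNA, with 1 dye swap (2 arrays with exchanged dyes) per region and dose, 24 arrays in all. Array numbers below name the content: 1 and 2 held the high dose and 3 and 4 the low dose, with MK-801 in Cy5 on 1 and 3 and in Cy3 on 2 and 4. For hippocampus and hypothalamus the submitters' titles number the low-dose arrays 1 and 2 and the high-dose arrays 3 and 4. Which animals an array holds, and whether their RNA was pooled, is not given in the labels. Each n below therefore counts regions, or arrays where so stated, and not rats. All RNA came from 1 set of 9 rats, and its 3 saline rats were the only controls for both doses.

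Red blood cells are packed with haemoglobin, a tetramer of alpha and beta globin chains that each hold a haem group. Young red cells (reticulocytes) still carry globin messenger RNA, so blood left in the vessels of a dissected tissue adds this RNA to the tissue's own, and some neurons and glia are known to make globin transcripts as well. Platelets have no nucleus either, but keep messenger RNA from the megakaryocyte that shed them, including that of platelet factor 4. In bulk tissue RNA, fewer cells of a type and less RNA per cell cannot be told apart. Whether the rats were perfused is not given in the sources used here.

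The sequences that each probe reads show how far the globin probes can tell the family's genes apart. The array's probes are 60 bases long, and positions are those of the scanner files, assembly rn3. For the Hbb and Hbb-b1 probes and the first Slc4a1 probe only the last 30 bases are shown. Capitals mark the start codon in the Hbb probe and ATTAAA, the letters of a polyadenylation signal, in the Hbb-b1 probe.
Hbb, chr1:161701424-161701483, minus strand: actcagaaacagacaccATGgtgcacctga
Hbb-b1, chr1:161671970-161672029, minus strand: gaaaatctgtcctactaATTAAAggcattt
Hba-a3, chr10:15560180-15560237, minus strand: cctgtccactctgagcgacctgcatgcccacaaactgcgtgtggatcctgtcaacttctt
Alas2, chrX:39863822-39863881, plus strand: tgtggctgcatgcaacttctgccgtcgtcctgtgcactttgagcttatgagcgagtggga
Slc4a1 first probe, chr10:91469722-91469781, minus strand: cccagctaaactgagtcttgggggagcgaa
Pf4, chr14:18812555-18812614, minus strand: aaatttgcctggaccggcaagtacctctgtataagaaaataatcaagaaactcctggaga

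The Hbb probe lies at the 5′ end of the beta globin transcript, across the end of the 5′ untranslated region and the start codon. Its first 50 bases were identical to the first transcribed bases that RefSeq (assembly GRCr8) lists for Hbb. They differed at 6 of 45 bases from those of Hbb-b1 and at 6 of 44 from those of Hbb-bs, another beta globin gene. The Hbb-b1 probe ends at the 3′ end of the transcript, and the scanner files tie it to accessions of both Hbb-b1 and Hbb. The Hba-a3 probe is coding sequence and is tied to the accessions of Hba-a1, Hba-a2 and Hba-a3. The values of both probes therefore cannot be assigned to 1 globin gene. The second Slc4a1 probe maps over a span of 573 bases on chr10 (91473198 to 91473770), longer than the probe itself. The positions listed for the Hba-a3 probe span 58 bases, fewer than the 60 of the probe.

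RefSeq's table held the bases upstream of the start of 4 of the 6 genes. They are shown as a description, and any link of these bases to the measured ratios was not tested. Capitals mark letters searched for on both strands: CACACCC, which holds the core that Klf1 binds, the promoter box CCAAT, the GATA factor letters AGATAA or, in another form, TGATAA, and the TATA-like ATAAA. In Hbb the copies of CCAAT lie side by side on opposite strands, and no motif overlaps another.
Hbb, GRCr8 chr1:167663722-167663971, minus strand: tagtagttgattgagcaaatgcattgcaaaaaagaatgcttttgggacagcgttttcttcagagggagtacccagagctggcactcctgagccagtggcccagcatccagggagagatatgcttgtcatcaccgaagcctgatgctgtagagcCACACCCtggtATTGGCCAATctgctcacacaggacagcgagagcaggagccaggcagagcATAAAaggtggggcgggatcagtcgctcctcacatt
Hbb-b1, GRCr8 chr1:167643521-167643770, minus strand: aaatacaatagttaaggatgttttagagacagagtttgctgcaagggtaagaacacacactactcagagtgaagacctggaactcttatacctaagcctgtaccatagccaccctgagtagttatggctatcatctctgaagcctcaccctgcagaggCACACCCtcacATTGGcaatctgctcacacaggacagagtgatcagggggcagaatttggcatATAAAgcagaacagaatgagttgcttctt
Hba-a3, GRCr8 chr10:15816944-15817193, minus strand: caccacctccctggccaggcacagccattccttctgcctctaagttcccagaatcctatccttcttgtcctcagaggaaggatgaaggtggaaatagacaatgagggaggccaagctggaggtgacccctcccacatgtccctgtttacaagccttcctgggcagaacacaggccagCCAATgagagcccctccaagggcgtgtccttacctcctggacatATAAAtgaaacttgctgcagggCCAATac
Alas2, GRCr8 chrX:22895200-22895449, plus strand: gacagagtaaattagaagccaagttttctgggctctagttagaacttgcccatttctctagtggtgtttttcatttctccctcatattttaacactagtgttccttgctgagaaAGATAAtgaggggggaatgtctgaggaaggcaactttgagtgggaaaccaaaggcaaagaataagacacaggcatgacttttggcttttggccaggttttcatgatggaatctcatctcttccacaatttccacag

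CACACCC stood in both beta globin windows and in 6.12% of all 33469 windows of 250 bases in the table. CCAAT stood in the 3 globin windows and in 34.0% of all windows, with its copies in Hbb and Hba-a3 numbering 2 each and in Hbb-b1 1. ATAAA stood in the 3 globin windows and in 39.3% of all. Of the GATA letters, AGATAA stood in the Alas2 window and in 10.3% of all, and TGATAA stood in none of the 4 windows and in 7.97% of all. A match is a description of these letters.

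The array files themselves set the limits of what the probes can show. Per array, 55.2% to 78.4% of probes passed the scanner's background test in both colours, and log2 ratios had an SD of 0.136 to 0.246. The globin and Alas2 probes were well above background on all 24 arrays, Pf4 on 23 and the first Slc4a1 probe on 19. The second Slc4a1 probe was well above background on 1 array. It failed the filter used throughout (at least 12 of 24 arrays) and no fold is given for it. The other 6 member probes were among the 27671 that passed. No member spot was saturated. The scanner software marked the Hbb-b1 spot as an outlier on 3 arrays (midbrain and amygdala at the high dose, hypothalamus at the low dose). Those spots were left out, which leaves Hbb-b1 with 4 regional values at the high dose, 5 at the low dose and 3 for the difference.

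Read by the Hbb probe, beta globin RNA was on average above saline at the high dose and below saline at the low dose. For Hbb, the MK-801 over saline log2 ratio at the high dose was 0.41 in midbrain, 0.65 in amygdala, 0.01 in ventral striatum, 0.42 in cerebral cortex, 0.37 in hippocampus and 0.14 in hypothalamus. All 6 regions were above 0, although the ventral striatum was at the saline level. The same probe gave -0.56 in midbrain, -0.58 in amygdala, -1.11 in ventral striatum, -0.28 in cerebral cortex, -0.25 in hippocampus and -0.49 in hypothalamus at the low dose. Every region was below 0, and the ranges of the doses did not overlap. The mean log2 ratio was 0.33 ± 0.23 (SD, n = 6 regions) at the high dose and -0.54 ± 0.31 at the low dose, which is 1.26 times and 0.686 times the saline level. The size depended on the dye orientation: the high-dose mean was 0.53 without array number 1 and 0.14 without array number 2, and the low-dose mean -0.33 without array number 3.

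The Hbb-b1 probe, which reads the other end of a beta globin transcript, gave -0.17 in ventral striatum, 0.38 in cerebral cortex, 0.35 in hippocampus and 0.14 in hypothalamus at the high dose. At the low dose it gave -0.9998 in midbrain, -0.29 in amygdala, -0.99 in ventral striatum, -0.44 in cerebral cortex and -0.62 in hippocampus. The ventral striatum was the 1 region below saline at the high dose. The means were 0.17 ± 0.25 (SD, n = 4) and -0.67 ± 0.32 (SD, n = 5). The high-dose mean was 0.06 with median centring, 0.09 without array number 1, 0.32 without array number 2, 0.29 without ventral striatum and 0.11 without cerebral cortex.

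Alpha globin was below saline in every region at the low dose and on both sides of it at the high dose. The Hba-a3 probe gave 0.24 in midbrain, 0.11 in amygdala, -0.02 in ventral striatum, 0.39 in cerebral cortex, 0.33 in hippocampus and -0.01 in hypothalamus at the high dose. It gave -0.76, -0.50, -0.83, -0.31, -0.51 and -0.51 in the same order at the low dose. All 6 low-dose values lay under all 6 high-dose values. The means were 0.17 ± 0.17 and -0.57 ± 0.19 (SD, n = 6). Without array number 1, which held MK-801 RNA in Cy5, the high-dose mean was -0.04, and without array number 2 it was 0.39, so the sign of this value at the high dose rested on 1 dye orientation.

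Alas2 encodes the erythroid form of the first enzyme of haem synthesis and is transcribed in red cell precursors. Its log2 ratio at the high dose was 0.28 in midbrain, 0.41 in amygdala, 0.15 in ventral striatum, 0.40 in cerebral cortex, 0.39 in hippocampus and 0.17 in hypothalamus. It was -0.43, -0.12, -0.57, -0.12, -0.18 and -0.45 in the same order at the low dose. Alas2 thus lay on opposite sides of saline in all 6 regions, with a smaller spread at the high dose than Hbb. The signs of Hbb were the same, but its high-dose value in ventral striatum (0.01) was at the saline level. The means were 0.30 ± 0.12 and -0.31 ± 0.19 (SD, n = 6). The high-dose mean was 0.10 without array number 1 and 0.50 without array number 2, and the low-dose mean was -0.49 without array number 3 and -0.14 without array number 4.

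Slc4a1 encodes band 3, the anion exchanger of the red cell membrane, and its first probe was dim. It gave 0.32 in midbrain, 0.21 in amygdala, 0.13 in ventral striatum, 0.17 in cerebral cortex, 0.12 in hippocampus and 0.12 in hypothalamus at the high dose. At the low dose it lay between -0.26 (ventral striatum) and 0.06 (cerebral cortex), below 0 in 4 of 6 regions. The means were 0.18 ± 0.08 and -0.09 ± 0.12 (SD, n = 6), and the scanner software's own log ratio put the high-dose mean at 0.40. It was 0.31 without array number 1 and 0.04 without array number 2. The low-dose mean was -0.02 without array number 3, -0.15 without array number 4 and -0.05 without ventral striatum.

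Pf4 encodes platelet factor 4 (CXCL4), a chemokine stored in platelet granules, and some brain macrophages are known to express it too. At the high dose it gave 0.13 in midbrain, 0.32 in amygdala, 0.41 in ventral striatum, 0.47 in cerebral cortex, 0.24 in hippocampus and 0.34 in hypothalamus. Its low-dose values were -0.27, 0.25, -0.07, -0.11, -0.25 and 0.04 in the same order. All regions were above saline at the high dose, and the low-dose values lay on both sides of 0, so Pf4 did not show the opposite signs of Hbb and Alas2. The means were 0.32 ± 0.12 and -0.07 ± 0.19 (SD, n = 6). The high-dose mean was 0.13 without array number 1 and 0.50 without array number 2. The low-dose mean was -0.32 without array number 3 and 0.19 without array number 4, so it has no settled sign. Leaving out midbrain, hippocampus or amygdala gave -0.03, -0.03 and -0.13.

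**Figure D1:**
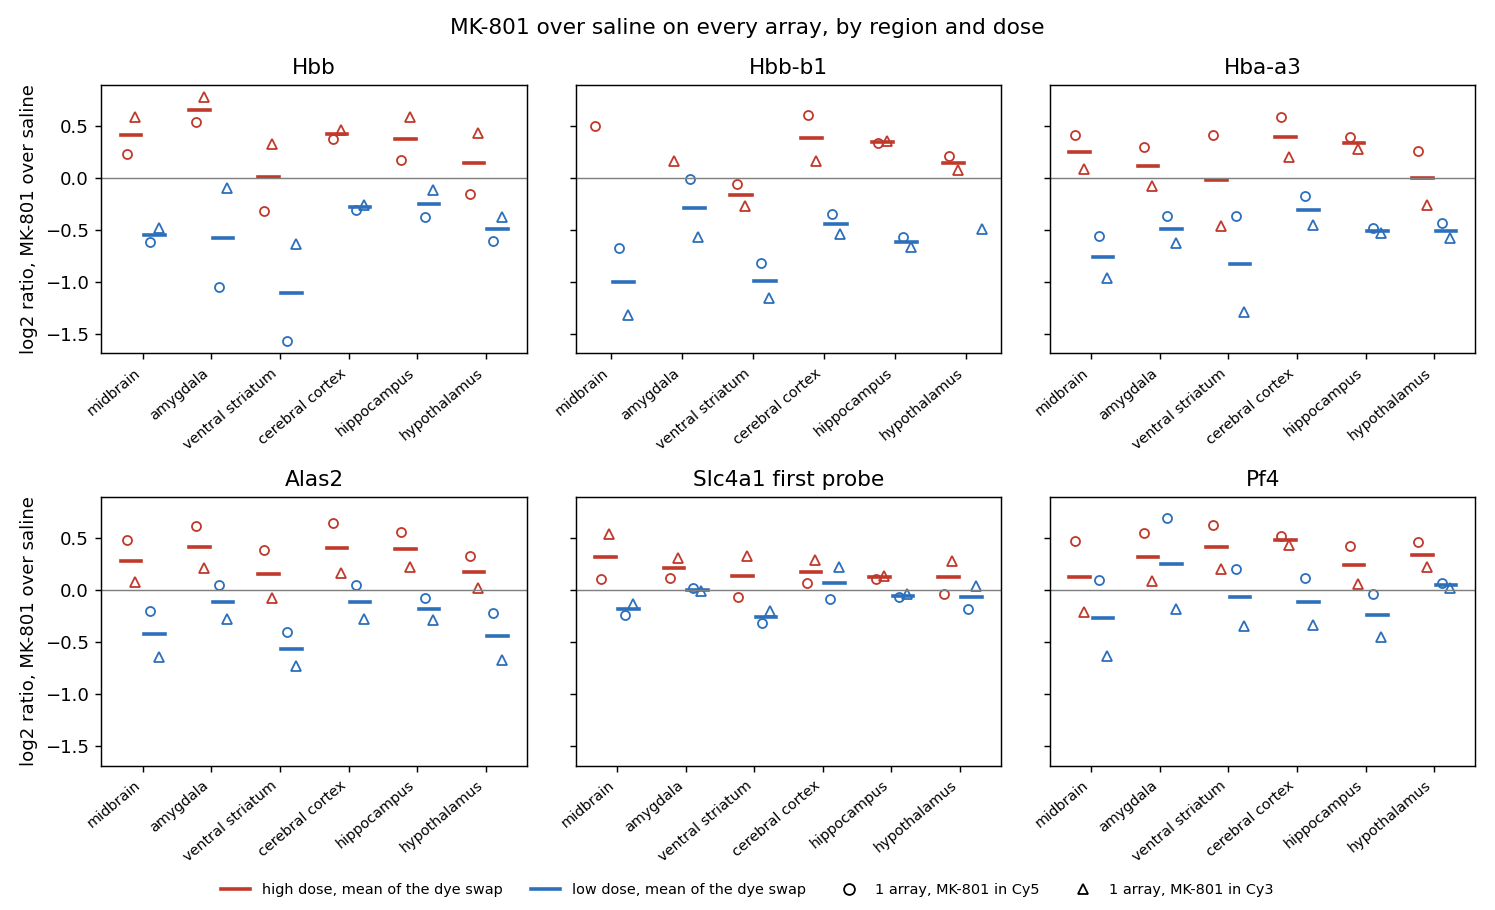
Log2 ratio of MK-801 to saline (vertical axis) by brain region (horizontal axis) for the 6 member probes that passed the filter, at the high dose (red) and the low dose (blue). Each open symbol is 1 array, a circle with MK-801 in Cy5 and a triangle with MK-801 in Cy3, and a bar is the mean of the dye swap; Hbb-b1 lacks the 3 spots left out. The low-dose bars of Hbb lie between -1.11 and -0.25, below all high-dose bars.

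In all, 4 of the 6 member probes passing the filter were called at the high dose, all higher, at a limma adjusted p under 0.05. These were Hbb, Alas2, the first Slc4a1 probe and Pf4, and 2.01% of all probes tested were called. At the low dose 4 of 6 were called, all lower, namely Hbb, Hbb-b1, Hba-a3 and Alas2, against 2.42% of all probes. Between the doses 5 of 5 tested were called, all higher at the high dose, against 1.44% of all probes, and Hbb-b1 had too few regions. Since the members were chosen on these ratios, these counts are given for completeness and support nothing. In a fit of single arrays with a term for dye orientation, the number of all probes called between the doses was 656 in place of 393. That fit counts the 2 arrays of a swap as separate values, although they hold the same region and dose. The median over the 6 members was 0.24 at the high dose, -0.43 at the low dose and 0.68 for the difference. Over all probes tested the median was -0.0023, 0.0020 and -0.0047.

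Every member was higher at the high than at the low dose, and the saline RNA enters both ratios. The log2 ratio at the high dose minus that at the low dose was 0.88 ± 0.26 for Hbb (SD, n = 6 regions, 1.84-fold). It was 0.87 ± 0.08 for Hbb-b1 (n = 3), 0.74 ± 0.18 for Hba-a3 and 0.61 ± 0.09 for Alas2. It was smaller for Pf4 (0.39 ± 0.18) and for the first Slc4a1 probe (0.26 ± 0.15). With an array number left out these ranged from 0.13 to 0.64 for Pf4 and from 0.13 to 0.40 for Slc4a1, which was at 0.47 with the scanner's log ratio. The high dose was above the low dose in every region measured for each of the 6. The narrowest gap was Pf4 in amygdala (0.07) and the widest was Hbb in amygdala (1.23), so 1 region held both extremes. Hba-a3 differed most in midbrain (1.01) and least in hypothalamus (0.50), whereas Alas2 stayed between 0.52 and 0.72.

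**Figure D2:**
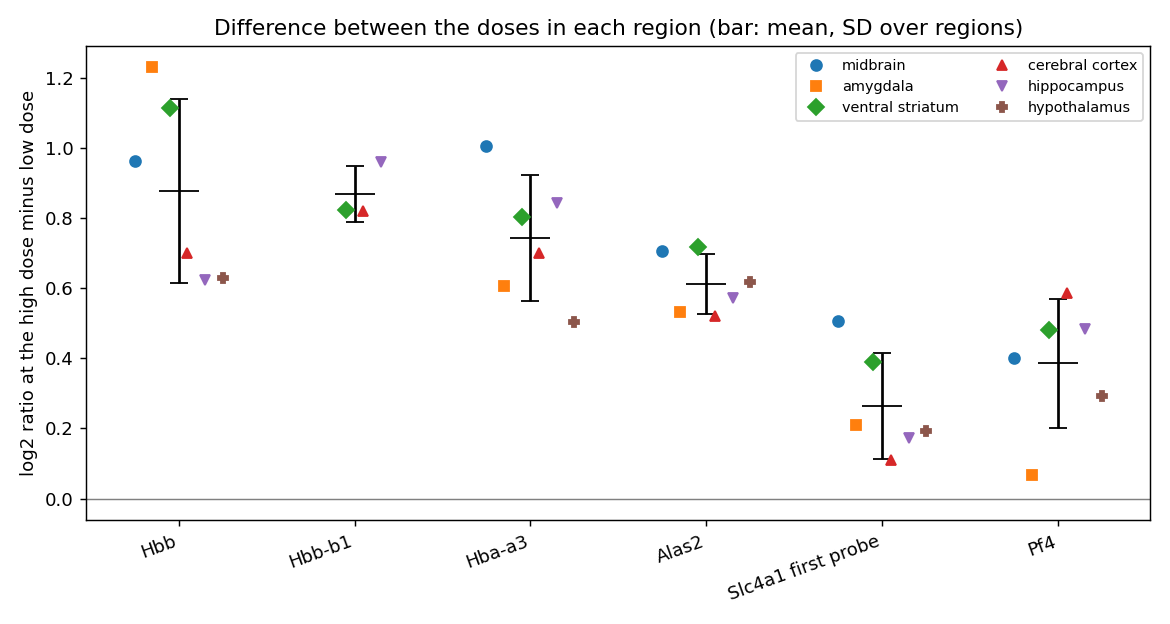
Log2 ratio at the high dose minus that at the low dose (vertical axis) for the 6 member probes that passed the filter (horizontal axis), 1 symbol per brain region. The horizontal tick and whiskers are the mean and SD over regions (n = 3 for Hbb-b1 and 6 for the others), and all symbols lie above 0.

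Among the regions the ventral striatum stood lowest for most red cell probes. It held the lowest value at both doses for Hbb, Hba-a3 and Alas2, the lowest at the high dose for Hbb-b1 and the lowest at the low dose for the first Slc4a1 probe. For Pf4 the lowest region was midbrain at both doses. Each region lay on a slide of its own, so region and slide cannot be told apart.

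The dye orientation moved the ratios of single arrays by as much as 0.47 (Hbb at the low dose in amygdala), taken as the distance of each array from the mean of its swap. Its direction differed between probes. Hba-a3, Hbb-b1, Alas2 and Pf4 were on average higher with MK-801 RNA in Cy5, whereas Hbb and the first Slc4a1 probe were higher with it in Cy3. The difference between the doses stood in both orientations. With MK-801 in Cy5 it was 0.90 ± 0.44 for Hbb, 0.79 ± 0.11 for Hba-a3 and 0.64 ± 0.09 for Alas2, each higher at the high dose in 6 of 6 regions. With MK-801 in Cy3 it was 0.86 ± 0.15, 0.70 ± 0.26 and 0.59 ± 0.12, again in 6 of 6 regions. Pf4 was higher at the high dose in 5 of 6 regions in the first orientation (0.32 ± 0.23) and in 6 of 6 in the other (0.45 ± 0.21).

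The same difference was looked for in each colour channel apart, since the saline RNA was hybridised on the arrays of both doses. In the MK-801 channel the Hba-a3 log2 intensity was higher on the high-dose arrays by 0.63 ± 0.29 (SD, n = 6 regions), in 6 of 6 regions. Its saline channel differed between the same arrays by -0.12 ± 0.20, with 3 regions in each direction. For Alas2 the values were 0.69 ± 0.25 (6 of 6 regions) in the MK-801 channel and 0.08 ± 0.20 in the saline channel. For Hbb they were 1.12 ± 0.37 (6 of 6) and 0.24 ± 0.61. Both Hbb values include array number 3 of hippocampus and hypothalamus, low in the MK-801 channel (8.96 and 9.48) and in the saline channel (9.34 and 10.09). For Hbb-b1 the MK-801 channel differed by 0.65 ± 0.80 and for Pf4 by 0.23 ± 0.35, in 5 of 6 regions each. The spread of these 2 probes exceeded the difference, and that of Hbb-b1 includes array number 1 of ventral striatum, at 13.79. In midbrain, amygdala and hypothalamus the Hbb-b1 difference sets 1 array at one dose against 2 at the other. The dye orientation does not cancel in those regions.

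Across the 12 region and dose ratios the red cell probes correlated. The Pearson r between Hbb and Alas2 was 0.95 and between Hba-a3 and Alas2 0.96 (12 dye swaps), and Hbb-b1 and Alas2 gave 0.98 (9 dye swaps). The points share the saline rats, and the gap between the doses is part of each r. Within 1 dose the r between Hbb and Alas2 was 0.89 at the high dose and 0.73 at the low dose (6 regions each). The first Slc4a1 probe was less like the others at the high dose, with r of 0.21 to Alas2, 0.27 to Hba-a3, 0.51 to Hbb and 0.40 to Hbb-b1 (4 regions), than at the low dose (0.79 to 0.98). Pf4 gave r of 0.62 to Hbb over the 12 ratios and -0.27 (high dose) and -0.21 (low dose) within the doses. Its r to Hba-a3 within the doses was -0.13 and 0.26, and to Hbb-b1 -0.18 (4 regions) and 0.64 (5 regions), so the globin probes differed in this.

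In saline RNA each member varied between regions, and the order of regions differed between probes. The Hba-a3 log2 intensity in the saline channel was 16.45 ± 0.16 in midbrain, 16.41 ± 0.39 in ventral striatum, 16.19 ± 0.39 in amygdala, 16.14 ± 0.06 in hypothalamus, 16.03 ± 0.04 in cerebral cortex and 15.67 ± 0.15 in hippocampus (SD, n = 4 arrays of the same saline rats). Cerebral cortex did not overlap with its neighbour on either side, hypothalamus and hippocampus, and the other neighbours in this order overlapped. Alas2 was highest in ventral striatum (10.23 ± 0.13), which did not overlap with the next region, hypothalamus (9.96 ± 0.24). It was lowest in hippocampus (9.23 ± 0.52), with cerebral cortex (9.88 ± 0.08), midbrain (9.86 ± 0.21) and amygdala (9.76 ± 0.16) between and overlapping. Hippocampus was thus the lowest region for the alpha globin and haem enzyme probes. Hbb-b1 was at 16.37 ± 0.18 in midbrain (n = 3), 16.29 ± 0.09 in amygdala (n = 3), 16.13 ± 0.07 in hypothalamus (n = 3), 16.001 ± 1.44 in ventral striatum, 15.82 ± 0.64 in cerebral cortex and 15.82 ± 0.14 in hippocampus. Its order rested on 1 array: array number 1 of ventral striatum lay at 13.85, and the other 3 arrays there (16.63 to 16.83) were above every midbrain array, so that the ventral striatum had the highest median (16.67). The range of the regional means was 0.55, and 0.995 without array number 1. In the order of the means, only the neighbours amygdala and hypothalamus did not overlap.

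The Hbb probe, at the 5′ end of the transcript, had another order. It was highest in hypothalamus (11.28 ± 0.81) and hippocampus (10.69 ± 0.90), then ventral striatum (10.10 ± 0.47), cerebral cortex (9.76 ± 0.36), amygdala (9.498 ± 0.24) and midbrain (9.49 ± 0.18). No 2 neighbours in this order were free of overlap. Hypothalamus and hippocampus were the regions of 1 scan day, so region and scan day cannot be told apart. Pf4 was highest in amygdala (8.76 ± 0.10), which did not overlap with hypothalamus (8.53 ± 0.06). Ventral striatum (8.52 ± 0.17), cerebral cortex (8.46 ± 0.21) and midbrain (8.26 ± 0.51) followed, and hippocampus was lowest (7.63 ± 0.68). The first Slc4a1 probe spanned 0.20 log2 units over the regions, from 6.91 ± 0.10 in ventral striatum to 7.11 ± 0.12 in hippocampus, and all its neighbouring regions overlapped.

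**Figure D3:**
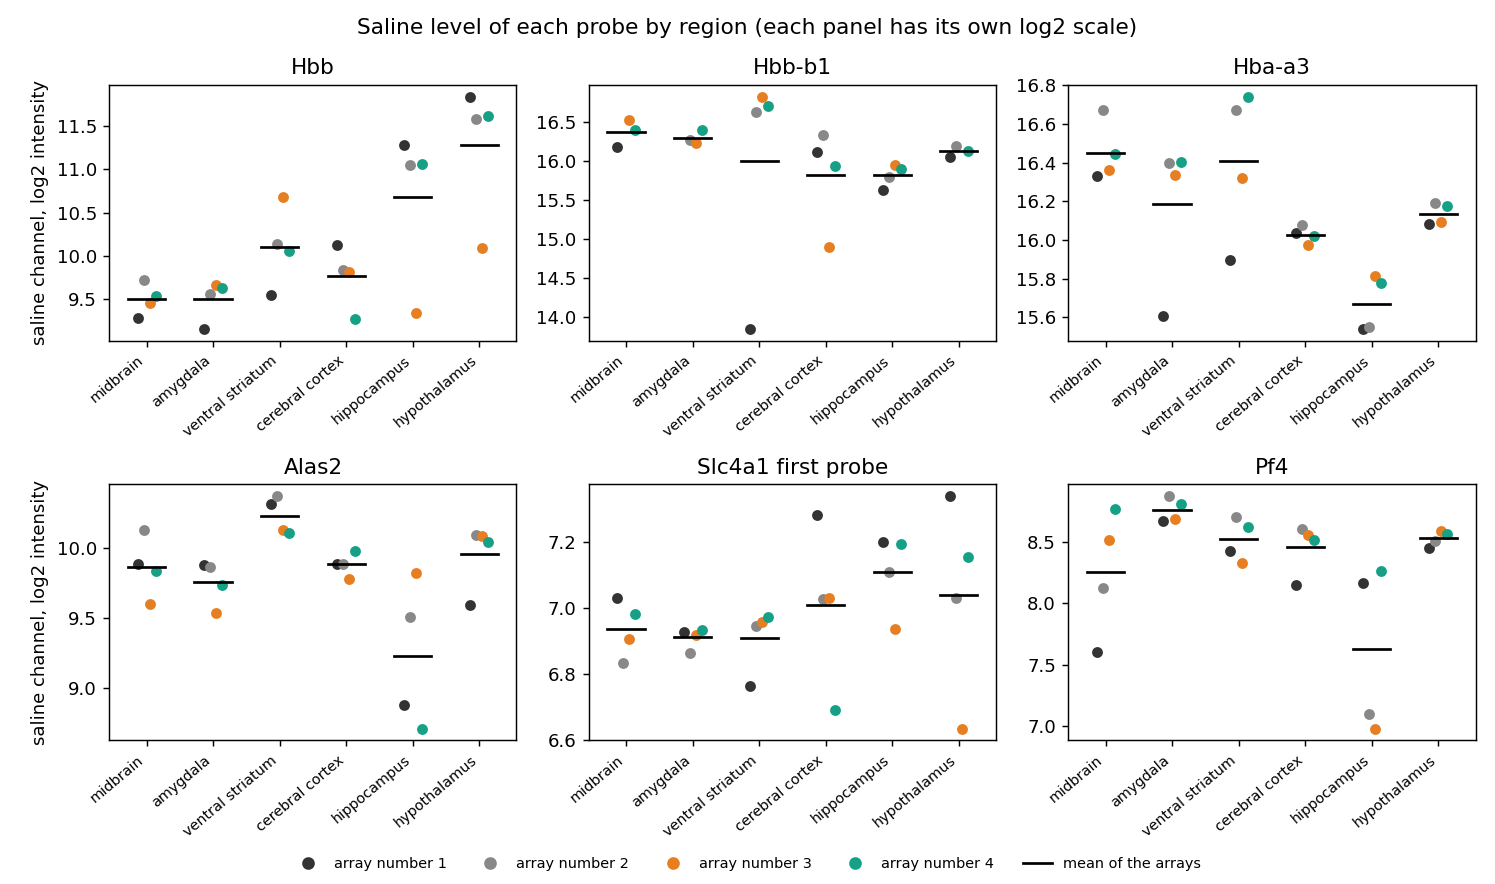
Log2 intensity of the saline channel after normalization (vertical axis, its own scale in each panel) by brain region (horizontal axis) for the 6 member probes that passed the filter. Each point is 1 array, coloured by array number, and a bar is the mean of the arrays. For Hbb, array number 3 lies at 9.34 in hippocampus and 10.09 in hypothalamus, apart from the other arrays of those regions.

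Of other red cell genes, few moved. In the list of red cell membrane and cytosol genes 14 of 23 were measured, 2 rose at the high dose, none was called lower at either dose, and the list median of the difference between doses was -0.0018. Ahsp, whose product holds free alpha globin until it joins beta globin, was 0.19 ± 0.03 at the high dose (SD, n = 6, higher in 6 of 6 regions, limma adjusted p = 0.00124). It was -0.12 ± 0.13 at the low dose (higher in 1 of 6 regions, limma adjusted p = 0.195). Its difference between the doses was 0.31 ± 0.12 (limma adjusted p = 0.0014), and this call held in all 15 alternatives tried (7.89e-05 to 0.0454). The high-dose call held in 11 of 13 (9.85e-05 to 0.174) and was lost with median centring and without array number 1 (0.16). Sptb, which encodes the red cell's beta spectrin and is also expressed in neurons, rose at the high dose by 0.19 ± 0.13 (higher in 6 of 6 regions, limma adjusted p = 0.0309, 4 of 13 alternatives called it). Leaving out any of the regions but hypothalamus ended the call, with limma adjusted p of 0.00439 to 0.249 over the alternatives. The brightest other genes of the list, Prdx2, Blvrb, Tfrc and Tmod1, differed between the doses by -0.02, -0.03, 0.06 and -0.06.

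None of the 9 other enzymes and carriers of haem synthesis was called at a dose (limma, all probes). Alas1, the housekeeping form of the enzyme that Alas2 encodes, was 0.15 ± 0.10 at the high dose and 0.08 ± 0.05 at the low dose. Fech, which inserts iron into haem, was 0.08 ± 0.08 and 0.00 ± 0.09. At an unadjusted p under 0.05 limma gave 3 of the 9 at the high dose and 2 at the low dose. Among erythroid transcription factors 5 of 8 were measured. Lmo2, which is also expressed in vessel cells, fell by 0.14 ± 0.08 at the high dose (lower in 6 of 6 regions, limma adjusted p = 0.0428, called in 4 of 13 alternatives, 0.00139 to 0.935, and lost when any region but midbrain was left out), and Klf1, a red cell factor that binds CACCC boxes, was 0.03 ± 0.07. Of genes that take up haemoglobin or handle haem and iron, 9 of 11 were measured. Blvra, biliverdin reductase, was lower at the high than at the low dose by -0.17 ± 0.04 (lower in 6 of 6 regions, limma adjusted p = 0.0134, called in 8 of 15 alternatives, 0.000662 to 0.58), and none was called at a single dose. The call was lost without amygdala (0.053), without ventral striatum (0.068) and without array number 1 (0.42) or 4 (0.17). The globins of nerve and other tissues, Ngb, Cygb and Mb, had no call at either dose (0 also at an unadjusted p under 0.05, limma), with differences of 0.03, -0.08 and -0.02. Other genes of the alpha and beta globin families that passed the filter did not share the members' difference. It was -0.03 ± 0.07 for Hbg1 (well above background on 20 arrays) and 0.06 ± 0.07 for Hbe2 (21 arrays). For the Hbq1 probe that passed (16 arrays) it was -0.03 ± 0.09.

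Of platelet and megakaryocyte markers beside Pf4, 5 of 16 were measured and none was called at a single dose. Treml1, a receptor of platelet granules, was higher at the high than at the low dose by 0.17 ± 0.05 (n = 6, higher in 6 of 6 regions, limma adjusted p = 0.0162). The call was lost when ventral striatum, cerebral cortex or hypothalamus, or array number 4, was left out (0.085, 0.051, 0.068 and 0.079), and 8 of 15 alternatives kept it (0.00266 to 0.617). Gp1bb, the brightest of the list, which is also expressed in brain, differed by -0.03 ± 0.04. F13a1, Gp9 and Tbxas1 differed by 0.02, 0.06 and -0.05. A probe on chr3 that the scanner files describe as a partial match (13%) to platelet factor 4 was not a member. It was well above background on 24 arrays and differed by 0.04 ± 0.08. Of white blood cell markers 4 of 26 were measured (Camp, Cd3d, Lcn2 and Nkg7), and the others were not well above background on enough arrays or had no probe. None of the 4 was called by limma (at an unadjusted p under 0.05, 0 at the high dose and 1 at the low dose), and their differences lay between -0.02 and 0.06.

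Markers of other tissue in the dissections moved in part with the members, and their part in the members' ratios was not tested. All 11 measured meningeal and fibroblast markers were higher at the high than at the low dose, with a list median of 0.24, and none was called between the doses (3 at an unadjusted p under 0.05, limma). At the low dose Slc6a13 fell by 0.31 ± 0.21 (lower in 6 of 6 regions, limma adjusted p = 0.0169, called in 10 of 13 alternatives, 0.000862 to 0.124, and lost without hippocampus, 0.072). Their region medians lay between -0.32 (hypothalamus) and 1.03 (cerebral cortex). In hypothalamus the members stood at 0.63 (Hbb), 0.50 (Hba-a3) and 0.62 (Alas2), and in cerebral cortex at 0.70, 0.70 and 0.52. The median of 8 choroid plexus markers was 0.13, and that of 15 endothelial and pericyte markers 0.02, with none called between the doses. Kdr, a VEGF receptor of endothelial cells, fell at both doses, by 0.18 ± 0.09 at the high dose (limma adjusted p = 0.0146, called in 8 of 13 alternatives, 0.00166 to 0.426, and lost without ventral striatum, 0.062, or cerebral cortex, 0.067). At the low dose it fell by 0.30 ± 0.15 (limma adjusted p = 0.00269, called in 13 of 13, 7.26e-05 to 0.0385), and it was below 0 in 6 of 6 regions at each dose. Of 7 microglial markers, 4 rose at the low dose, where the globins were below saline, each in 6 of 6 regions. These were P2ry12 (0.17 ± 0.07, limma adjusted p = 0.0086, 11 of 13 alternatives), C1qa (0.15 ± 0.06, 0.0145, 7 of 13), C1qb (0.11 ± 0.04, 0.0367, 4 of 13) and C1qc (0.22 ± 0.03, 0.00034, 12 of 13). Leaving out midbrain, ventral striatum or hippocampus ended the calls of C1qa (0.052 to 0.062) and C1qb (0.087 to 0.14). C1qb was also lost without cerebral cortex (0.13), hypothalamus (0.067) or array number 4 (0.18), and C1qc without array number 4 (0.82). Between the doses P2ry12 was lower at the high dose by -0.23 ± 0.08 (limma adjusted p = 0.00303, 14 of 15 alternatives, 9.19e-05 to 0.229), and the calls of C1qa (-0.14 ± 0.05, 0.047) and C1qc (-0.15 ± 0.08, 0.045) held in 5 of 15 each. Mag, of the 6 oligodendrocyte markers, rose at the low dose by 0.13 ± 0.06 (limma adjusted p = 0.0368, 4 of 13 alternatives, 1.22e-05 to 0.164), and leaving out any region but hypothalamus ended that call. The summed saline intensity of the meningeal markers, after normalization, ran from 30390 in ventral striatum to 176100 in amygdala. That of the 4 white blood cell markers ran from 864.7 to 1268.

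**Figure D4:**
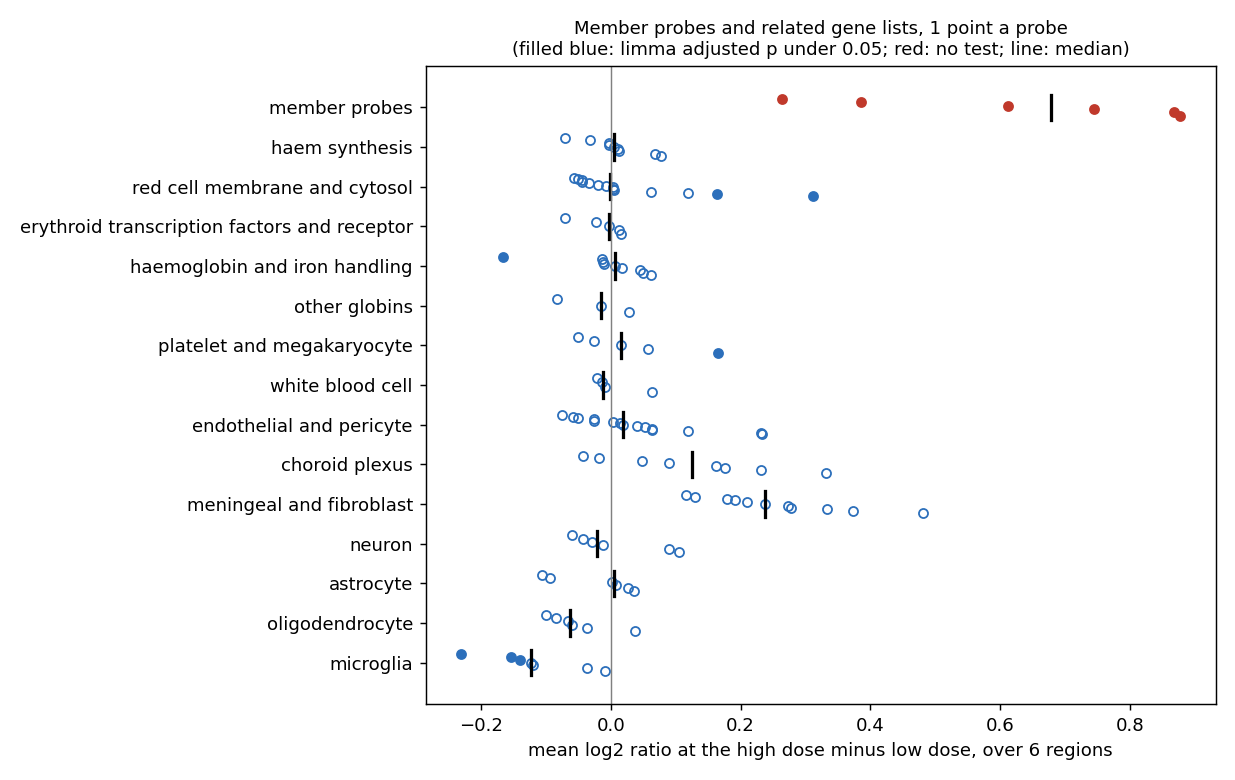
Mean log2 ratio at the high dose minus that at the low dose over the regions (horizontal axis) for the member probes (red, no test) and for each list of related genes or cell type markers (blue, 1 point per gene, filled where limma gave an adjusted p under 0.05). The vertical line of each row is its median, 0.68 for the members and 0.24 for the meningeal markers, and the lists of haem synthesis and white blood cell genes lie around 0.

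The genes whose 12 ratios were most like those of Hbb were looked for among 617 named genes that are not members and whose ratios spanned at least 0.5. Ahsp came first (r = 0.90 over 12 dye swaps), followed by Rnf187 (0.87), Haus1 (0.87), Cd52 (0.87), Cym (0.86), Orai2 (0.83), Hspb1 (0.83), Opalin (0.80), Fos (0.78) and Nat8 (0.78). For Pf4 the first were Dhx36 (0.88), Ccdc65 (0.85), Haus1 (0.84), Rd3l (0.84), Ccn2 (0.83), Rhob (0.83), Hspb1 (0.81), Cd52 (0.80), Tubb6 (0.80) and Adm (0.78). Ahsp was among the 10 nearest to Hbb and not among the 10 nearest to Pf4, and Haus1, Hspb1 and Cd52 were in both. The gap between the doses is part of each of these r. For these genes no r within a single dose is given, so a match over regions is not shown.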

How the data were processed

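Probe intensity in 2 colours was deposited as scanner files of Agilent Feature Extraction 9.5.3.1, 1 per array, with mean, background and processed signals per spot, per the file headers. A deposited value table holds the log10 ratio of Cy5 to Cy3, which matched the scanner's log ratio within 8.83e-07 on 19 arrays and within 0.00499 on 5, where that ratio is not 0, and is not turned for dye swaps (array medians -0.0295 to 0). Signals were corrected with normexp (offset 50) and normalized by loess (limma 3.58.1, R 4.3.3), with control spots given no weight in the loess fit. Outlier-flagged spots took part in both steps and were left out afterwards, when spots were averaged per probe. Ratios were turned to MK-801 over saline, and the 2 arrays of a swap were averaged. Saline levels are Aquantile-normalized single channels. The 45018 spots hold 41012 probes, of which 10735 were named by accession, 5506 by symbol and 3718 by synonym through RefSeq (GRCr8). Regional values were fitted across all probes that passed the filter with lmFit and eBayes against 0 where at least 4 regions had a value, with Benjamini-Hochberg adjustment. Their p-values rest on variation among regions and say nothing of variation among rats.

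The 3 scan days held ventral striatum with cerebral cortex, midbrain with amygdala, and hippocampus with hypothalamus. Array numbers, set here from the dye and dose in the labels and not from the titles, mark the dye orientation and dose. The dye deviations correlated between all groups (r 0.523 to 0.853 over 66 pairs of groups). Groups of different dose share no array number, so these r describe the dye orientation and cannot show an effect of the array number. A fit with the array number as a replicate block was run as an alternative, and these r give no ground for it. Members and lists were chosen with earlier results of these data known. Every member probe is described. List genes are given by counts, with values for those called and some of the brightest, each by its brightest probe, and the nearest patterns are the 10 highest r. The fit was tested on simulated data. Figures used matplotlib 3.10.9. Alternatives covered the scanner's ratio, median centring, the value table, kept outlier spots, single dye orientations, regions left out, single arrays with a dye term, filters and the variance prior. The scanner's ratio and the value table hold nearly the same numbers. Keeping outlier spots changes only the ratios of probes with a flagged spot, and a dye effect does not cancel in single orientations. The counts of alternatives that kept a call are therefore not counts of independent checks. Single scan days, with the regions of 1 day only, were tried for the member ratios and not for the calls.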

Additional observations from a re-analysis of the deposited data

Results flagged for a closer look

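In 2 results every region lay above saline at one dose and below it at the other. These were Hbb, with a difference between the doses of 0.88, and Alas2, with a difference of 0.61. For Hbb the high-dose value in ventral striatum was 0.01, which is at the saline level. Both were among the members that the fit over all probes called between the doses. Since the members were chosen with this pattern known, that call is no independent test of it.

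In 6 of 50 groups of 4 to 6 values, 1 value stood far from the rest, where chance gives about 1 in 20 groups. All 6 were saline levels, on the log2 scale. Hbb lay at 9.34 on array number 3 of hippocampus against 11.05 to 11.28 on the other arrays, and at 10.09 on array number 3 of hypothalamus against 11.59 to 11.85. On those 2 arrays the MK-801 channel was low as well, at 8.96 and 9.48. Hbb-b1 lay at 13.85 on array number 1 of ventral striatum against 16.63 to 16.83, and the MK-801 channel of that array was at 13.79. Hba-a3 lay at 15.61 on array number 1 of amygdala against 16.33 to 16.40. Alas2 lay at 9.59 on array number 1 of hypothalamus against 10.05 to 10.10. The first Slc4a1 probe lay at 6.76 on array number 1 of ventral striatum against 6.95 to 6.97.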

How the results depend on the processing

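The medians over the 6 members kept their sign in every alternative run. They were 0.11 to 0.35 at the high dose (0.24 as reported), -0.47 to -0.27 at the low dose (-0.43) and 0.47 to 0.75 for the difference (0.68), with the lowest difference, 0.47, without array number 1 and 0.51 without array number 4. With the regions of 1 scan day only the difference was 0.69, 0.62 and 0.61, and the second of these, for midbrain and amygdala, has no Hbb-b1 value. Of single members, the sign turned for Hba-a3 at the high dose (-0.04 without array number 1) and Pf4 at the low dose (0.19 without array number 4). The range of saline levels of Hba-a3 over regions was 0.78, and 1.35 without Aquantile and 1.02 with processed signals less the 75th percentile; it was 0.67 to 0.87 without 1 array number.

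Calls in the related lists depended on the processing. At the high dose 4 were called, against 1 with the scanner's ratio, 0 with median centring, 1 with the value table and 1 to 37 with a region or array number left out. At the low dose 7 were called, against 2, 4, 2 and 3 to 47. Between the doses 7 were called, against 2, 1, 2 and 2 to 40, and 4 with no filter on dim probes. The highest counts came from single dye orientations, where a dye effect does not cancel. With single arrays and a term for dye orientation, 6, 9 and 7 list genes were called, and all probes called numbered 753, 944 and 656 in place of 554, 667 and 393. These higher counts come from a fit in which the 2 arrays of a swap are separate values.

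Depth on an array is signal over background. The second Slc4a1 probe and most white blood cell and platelet markers were too dim to be read, so a change in them was not detectable here.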
